A study of Mus musculus with 2 samples.

Results

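The genes described here encode the proteins that act directly downstream of the T cell receptor. They are the kinases Lck, Fyn and Zap70, the scaffolds Lat and Lcp2 (SLP-76), the enzymes and exchange factor Plcg1, Prkcq and Rasgrp1, and the diacylglycerol kinase Dgka. They were taken by gene name from the annotated, non-control spots of both arrays. All 9 were present, with 14 probes on 23 spots, among 27597 gene names on the array. Of these, 8 genes and 9 probes were bright enough to be tested, as part of the 9273 genes measured. Fyn was too dim in both genotypes.

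When a T cell receptor binds its ligand, Lck phosphorylates the receptor's signalling chains and the recruited Zap70, and Fyn can act beside Lck. Zap70 then phosphorylates Lat and Lcp2, which together hold phospholipase Plcg1 at the membrane. Plcg1 makes inositol trisphosphate, which releases calcium, and diacylglycerol, which recruits the Ras activator Rasgrp1 and protein kinase C theta (Prkcq). Dgka consumes diacylglycerol and so acts as a brake, and it is abundant in resting T cells.

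The study compared naive CD8+ T cells sorted for low CD44 and low CD25 from Bcl11bF/F/dLck-iCre mice, called knockout here, with cells sorted the same way from wild-type mice. Both were on the C57BL/6 background, and the sort was more than 90% pure per the labels. Bcl11b, a transcription factor with zinc fingers, acts in T cells, and its floxed alleles are removed by an iCre recombinase under the distal promoter of Lck, one of the genes described here. The labels mention neither floxed alleles nor Cre in the wild-type mice, and give no age, treatment or number of mice per sample. Each of 2 two-colour arrays carried 1 knockout sample in Cy5 and 1 wild-type sample in Cy3, and the labels call the pairs biological replicates 1 and 2. All ratios below are knockout over wild type on a log2 scale, where 1 is a doubling, with n = 2 arrays. Dyes were not swapped, so a gene's dye effect and the effect of genotype cannot be told apart, and in bulk RNA fewer cells of a type and less RNA per cell cannot be told apart either.

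Lck has 2 transcription starts in the RefSeq promoter table (GRCm38.p6), 15269 bases apart. The 250 bases before each are shown because the distal promoter of this gene is the kind that drives the recombinase. The upstream window lies at chr4:129573642-129573891 and the downstream window at chr4:129558373-129558622, both on the minus strand. Capitals mark 2 short sequences found by a search of both strands, TGTGGT, which Runx factors recognise, and CAGGAAG, which Ets factors recognise.
Lck upstream start: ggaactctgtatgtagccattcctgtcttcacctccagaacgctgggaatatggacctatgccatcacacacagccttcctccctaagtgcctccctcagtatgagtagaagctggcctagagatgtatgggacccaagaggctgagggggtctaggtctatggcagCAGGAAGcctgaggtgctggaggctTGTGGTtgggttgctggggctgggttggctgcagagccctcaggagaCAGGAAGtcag
Lck downstream start: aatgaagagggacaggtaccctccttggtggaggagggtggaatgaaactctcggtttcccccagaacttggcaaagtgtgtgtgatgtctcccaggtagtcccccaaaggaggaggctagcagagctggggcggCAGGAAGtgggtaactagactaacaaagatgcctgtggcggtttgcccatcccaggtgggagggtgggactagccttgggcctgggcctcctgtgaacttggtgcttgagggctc
Lcp2 start: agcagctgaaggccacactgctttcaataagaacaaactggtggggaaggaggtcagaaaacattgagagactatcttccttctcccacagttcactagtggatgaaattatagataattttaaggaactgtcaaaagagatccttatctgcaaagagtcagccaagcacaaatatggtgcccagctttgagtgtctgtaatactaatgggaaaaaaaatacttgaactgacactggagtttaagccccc
Rasgrp1 start: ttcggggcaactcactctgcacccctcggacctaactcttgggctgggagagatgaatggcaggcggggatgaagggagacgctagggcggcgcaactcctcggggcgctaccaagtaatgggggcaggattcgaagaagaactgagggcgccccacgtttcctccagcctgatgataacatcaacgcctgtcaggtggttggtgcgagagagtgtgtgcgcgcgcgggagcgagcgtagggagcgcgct
The windows of Lcp2 (chr11:34046678-34046927, plus strand) and Rasgrp1 (chr2:117342878-117343127, minus strand) are shown because these genes had the highest ratios on array 1. Neither holds TGTGGT or CAGGAAG. The upstream Lck window has CAGGAAG at 2 places and TGTGGT at 1, and the downstream window has CAGGAAG at 1 place.

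All 9 genes matched the promoter table, with 15 windows. TGTGGT was in 2 of the 15, those of Lck (upstream) and of 1 start of Zap70, and in 14% of the 32851 windows of all genes. CAGGAAG was in 3 of the 15, in Lck and Zap70, and in 10.8% of all windows. TGACCA, which the related factor Bcl11a recognises, was in 0 of the 15 and in 11.4% of all windows. The E-box CANNTG was in 10 of the 15, in every member except Fyn, and in 66.2% of all windows. A match describes the letters in the window and does not show that a factor binds there. Base composition differed among the windows: G and C made up from 41.2% (Lcp2 and the most upstream start of Dgka) to 72.4% (Prkcq and another start of Dgka), against a median of 52.4% over all windows.

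The arrays differed in quality. Of 43379 gene spots, 17276 (knockout) and 10739 (wild type) were well above background on array 1, and 10955 and 13446 on array 2. Bcl11b itself, the deleted gene, had ratios of -1.45 and -1.73 by its brighter probe (mean -1.59 ± 0.19, SD, n = 2; limma adjusted p = 0.0750) and -0.35 and -2.32 by the other. It was below 0 under all 11 alternatives, from -1.95 to -0.71 (limma adjusted p from 0.0388 to 0.636). It passed in 2 of them, without background correction and with probes bright in all 4 samples, and was smallest with median centring (-0.71, adjusted p = 0.545, limma). Whether either probe lies in the deleted part was not examined. CD8 T cell markers were measured for 8 of 10 genes in both genotypes, and none passed. Trac and Trbc1 had no probe under those names, so the label was checked on the other 8. Of 9 heat shock and immediate early genes 8 were measured and none passed (median 0.41). Of 11 housekeeping genes 10 were measured, with a median of 0.47, and 1 passed, Ywhaz, at 3.77 on array 1 and -0.09 on array 2.

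None of the 8 measured signalling genes passed the test across all genes (limma with Benjamini-Hochberg adjustment, threshold 0.05; adjusted p from 0.625 to 0.984), and none had an unadjusted p under 0.05. Over all genes 1.49% passed, 1.24% higher and 0.248% lower in the knockout. With 2 arrays, limma gave every gene the same standard error of 0.50 and in this fit the smallest mean ratio that passed was 1.68, a 3.20-fold difference. Each mean therefore has a 95% interval of ± 0.97, a factor of 1.96 either way, and a missed threshold does not show that the genotypes are alike. The median of the 8 means was 0.09, against 0.04 for all measured genes. On both arrays, 4 of the 8 were above 0 (30.9% of all genes) and 2 were below 0 (30.8%), and 2 had opposite signs (38.2%). Of the 4 above 0, Rasgrp1 counted as measured through its knockout channel alone.

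**Figure D1:**
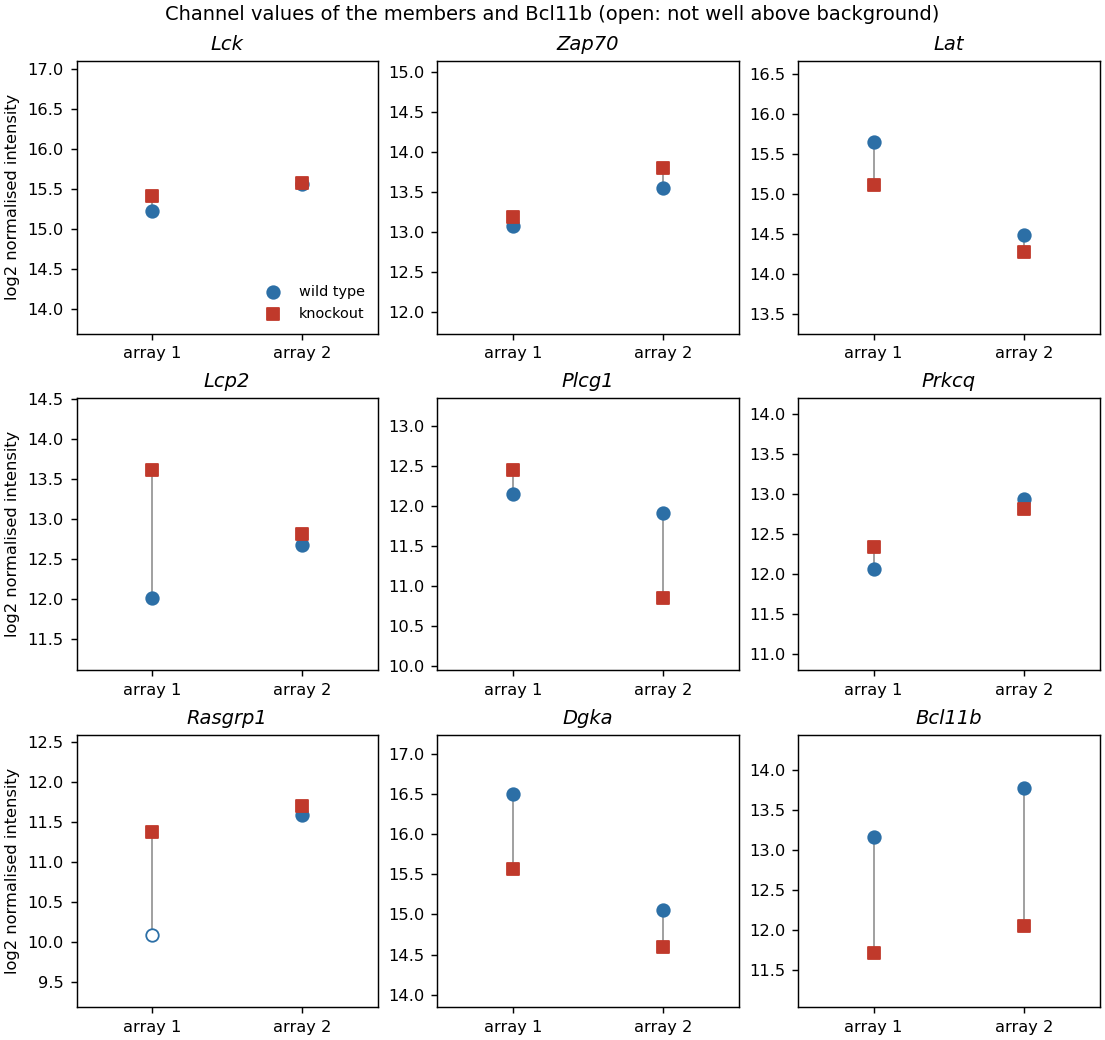
Log2 normalised intensity (y axis) of wild type (circles) and knockout (squares) on arrays 1 and 2 (x axis) for the 8 measured members and Bcl11b, with a line joining the samples of an array and each panel spanning the same number of log2 units. Lck and Zap70 squares lie close to their circles on both arrays, whereas Lcp2 and Rasgrp1 are apart on array 1 only.

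Among the kinases, Lck had nearly the same level in all 4 samples as normalised here. Its log2 normalised intensity was 15.41 (array 1) and 15.57 (array 2) in knockout cells and 15.22 and 15.56 in wild-type cells. The groups overlap, since the higher wild-type value exceeds the lower knockout value. The ratios were 0.19 and 0.0099, with a mean of 0.10 ± 0.13 (SD, n = 2; 95% interval -0.87 to 1.07; limma adjusted p = 0.978). This closeness depended on the intensity-dependent (loess) normalisation. With each array centred on its median instead, the ratios were 1.72 and 0.64 (mean 1.18, limma adjusted p = 0.305). The median of all genes was then 0.68. The probe is annotated on mm8 chromosome 4 from 129050906 to 129050965, minus strand.

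Zap70, the kinase that binds the phosphorylated receptor chains, was at 13.19 and 13.80 in the knockout and 13.07 and 13.55 in wild type. By these values it was slightly higher in the knockout sample of each array, and the groups overlap. The ratios of 0.12 and 0.25 gave a mean of 0.18 ± 0.090 (SD, n = 2; limma adjusted p = 0.960), the smallest spread between arrays among the 8 genes. The scanner software's own log ratio was -0.22 and 0.25 (mean 0.015). The sign on array 1 and the small spread thus depended on the processing. Median centring gave 1.58 and 0.67 (mean 1.12, limma adjusted p = 0.326). The probe lies on chromosome 1 from 36725911 to 36725970, plus strand.

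Fyn has 1 probe printed on 10 spots of each array (chromosome 10 from 39254149 to 39254208, plus strand). On array 1 its mean spot signal ranged from 880 to 1450 (median 1100) in the knockout channel and from 846 to 931 (median 892) in the wild-type channel. On array 2 it ranged from 1890 to 2050 and from 1160 to 1310. The medians of the 153 negative control spots were 985 and 1087 on array 1 and 1865 and 1120 on array 2, in the same order. Only 3 of the 10 knockout spots on array 1 were well above background, with 0 of 10 in wild type there and 0 of 10 in either channel on array 2. The ratio of the probe was 0.88 on array 1 and -0.18 on array 2. The 10 spots alone spanned 0.23 to 1.51 on array 1, although they measure the same RNA. No fold is given for Fyn, because neither genotype has a level that this probe can tell from background.

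Of the scaffolds, Lat was lower and Lcp2 higher in the knockout on both arrays, without passing. Lat, the membrane scaffold on which the complex assembles, was at 15.12 and 14.27 in the knockout and 15.65 and 14.48 in wild type. The groups overlap because both samples of array 1 were brighter than both of array 2. The ratios of -0.53 and -0.21 gave -0.37 ± 0.22 (SD, n = 2; limma adjusted p = 0.920). The probe lies on chromosome 7 from 126155353 to 126155412, minus strand.

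Lcp2, the cytosolic scaffold that bridges Lat and Plcg1, was at 13.61 and 12.82 in the knockout and 12.02 and 12.68 in wild type. Both knockout values exceeded both wild-type values, which held for 1 of the 8 genes and for 21.2% of all genes; 0 of 8 had the reverse order (20.8% of all genes). The size rested on array 1, with a ratio of 1.59 there and 0.13 on array 2. The mean of 0.86 ± 1.03 (SD, n = 2; 95% interval -0.11 to 1.84) is a 1.82-fold higher signal and had the lowest adjusted p of the 8 (0.625, limma). The probe, well above background in both channels of both arrays, lies on chromosome 11 from 33990902 to 33990961, plus strand.

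**Figure D2:**
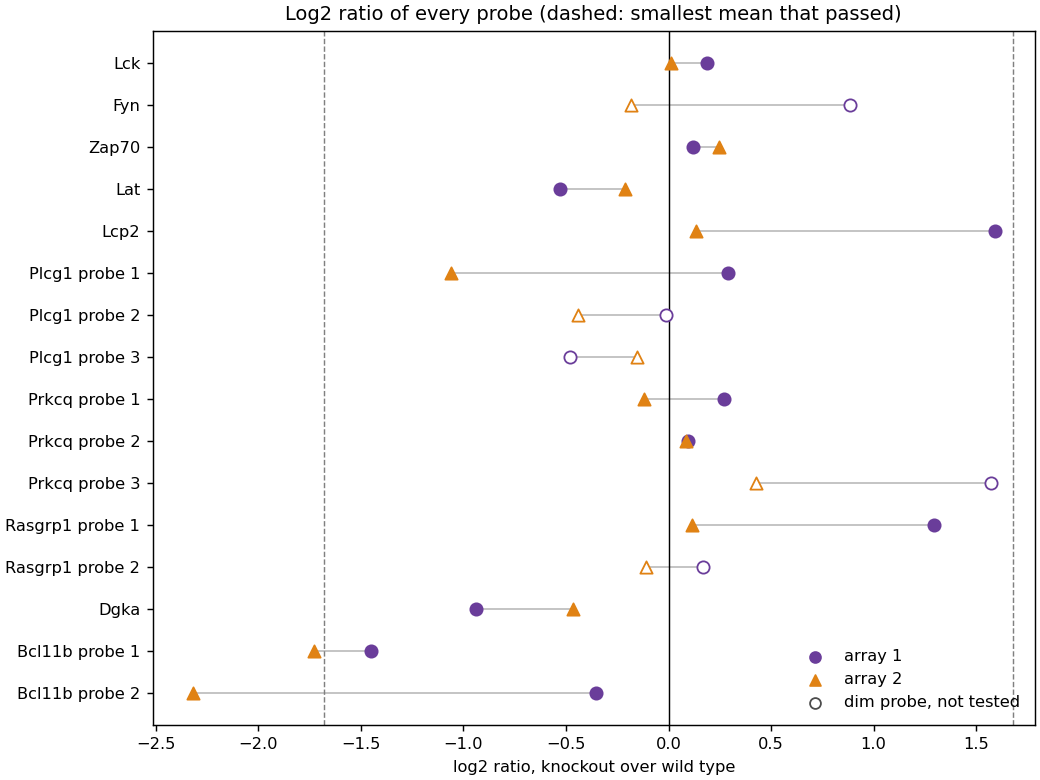
Log2 ratio, knockout over wild type (x axis), of each probe of the 9 genes and of Bcl11b (y axis) on array 1 (circles) and array 2 (triangles), joined by a line. Open symbols are probes too dim to be tested, and dashed lines mark the smallest mean that passed over all genes, 1.68. No tested member probe reached it on either array.

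The enzymes downstream of the scaffolds had no shared direction. Plcg1 was at 12.44 and 10.86 in the knockout and 12.15 and 11.91 in wild type by its 1 measured probe (chromosome 2 from 160454385 to 160454444, plus strand). The lowest of the 4 values is the knockout sample of array 2, and the highest is the knockout sample of array 1. The ratio was 0.29 on array 1 and -1.06 on array 2, for a mean of -0.39 ± 0.95 (SD, n = 2; limma adjusted p = 0.916). It was the only member past 2-fold on array 2, where 2.84% of all genes were. The other probes were not well above background in either channel. They gave -0.01 and -0.44 (from 160452897 to 160453049) and -0.48 and -0.15 (from 160423788 to 160423847), below 0 on both arrays.

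Prkcq, the protein kinase C isoform that links diacylglycerol to NF-kappaB, was at 12.34 and 12.82 in the knockout and 12.07 and 12.94 in wild type. The groups overlap, with both samples of array 2 above both of array 1. The ratios were 0.27 and -0.12, with a mean of 0.076 ± 0.28 (SD, n = 2; limma adjusted p = 0.984). A second measured probe, whose annotated interval (chromosome 2 from 11218655 to 11218714, plus strand) is near that of the brightest (from 11218252 to 11218311), gave 0.093 and 0.084. A dim probe annotated from 11180568 to 11180627, made to a neonate kidney cDNA, gave 1.57 and 0.43 and was not well above background in any channel. As normalised here, the bright probes thus put Prkcq within 0.27 of 0 on each array, and the dim one did not. Median centring put the brightest probe at 1.66 and 0.22.

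Rasgrp1, the exchange factor that activates Ras on binding diacylglycerol, was at 11.38 and 11.70 in the knockout and 10.08 and 11.58 in wild type. The groups overlap, and the low value is the wild-type sample of array 1. There the mean spot signal was 1160, close to the negative control median of 1087, and not well above background. The ratios were 1.30 and 0.11, with a mean of 0.70 ± 0.84 (SD, n = 2; 95% interval -0.27 to 1.68; limma adjusted p = 0.758). Taken from the scanner software's own log ratio, array 1 was at 3.20 and the mean was 1.66, still not past the threshold (adjusted p = 0.633, limma). Without array 1 the ratio was 0.11. This probe is annotated from 116971798 to 116971857 on the minus strand of chromosome 2. Another, from 116973976 to 116974035, was well above background only in the knockout of array 1 and gave 0.17 and -0.11. Lcp2 and Rasgrp1 were the members past 2-fold on array 1, 2 of 8, where 27% of all genes were.

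Dgka, which removes diacylglycerol, was at 15.56 and 14.59 in the knockout and 16.50 and 15.06 in wild type. It was lower in the knockout sample of each array, but the groups overlap, since the knockout of array 1 exceeds the wild type of array 2. The ratios of -0.94 and -0.46 gave -0.70 ± 0.33 (SD, n = 2; 95% interval -1.67 to 0.27; limma adjusted p = 0.761), a 1.62-fold lower signal. This was the lowest mean of the 8 genes. The probe, bright in all 4 samples, lies on chromosome 10 from 128123149 to 128123208, minus strand. Centring each array on its median in place of the intensity-dependent (loess) normalisation raised the median of all genes by 0.65. The means of Dgka, Lat and Plcg1 then turned positive (0.35, 0.64 and 0.42). Relative to the median gene, Dgka went from -0.74 to -0.33, Lat from -0.41 to -0.042 and Plcg1 from -0.42 to -0.26.

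**Figure D3:**
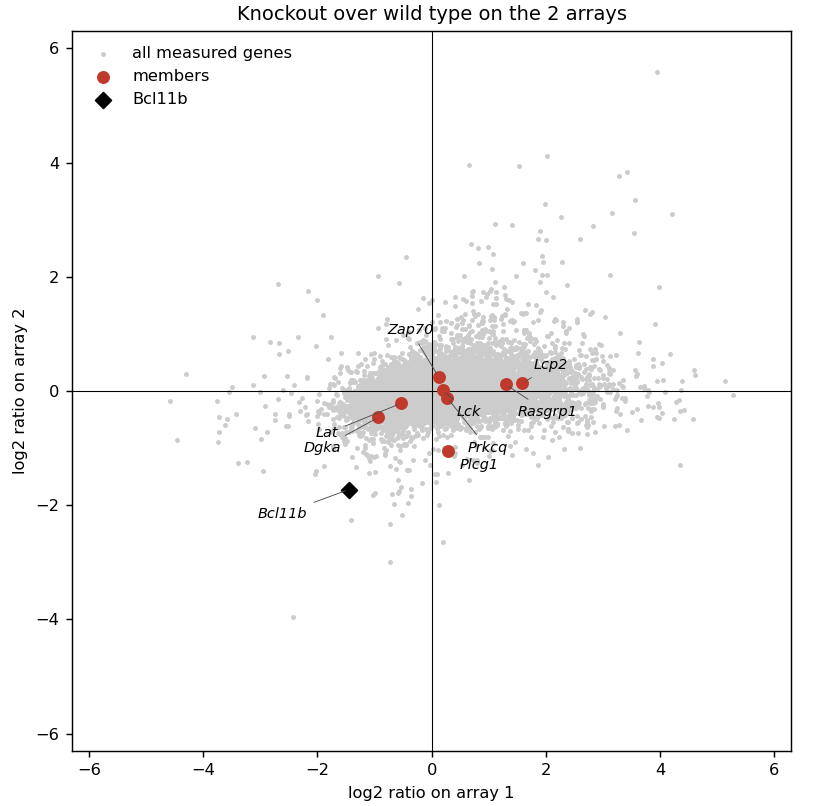
Log2 ratio of each of the 9273 measured genes on array 1 (x axis) against array 2 (y axis), in grey, with the 8 measured members in red and Bcl11b as a black diamond. The members lie within the cloud of all genes, Lcp2 and Rasgrp1 to the right on array 1 and Plcg1 at -1.06 on array 2.

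Other genes of the pathway, in 5 lists by role, had no common direction either. Of 100 genes 79 were measured; 1 was called higher and 0 lower, beside 1.49% called among all genes. Their median was 0.17, with 0.41 on array 1 and 0.03 on array 2. On both arrays 25 of the 79 were above 0 (30.9% of all genes) and 15 below (30.8%), and 39 had opposite signs (38.2%). Of those above 0, wild type was dim on at least 1 array in 3 of 7 kinase regulators and 4 of 6 adaptors. The same held for 2 of 4 Ras and diacylglycerol genes, 1 of 5 calcium genes and 1 of 3 NF-kappaB and phosphatidylinositol 3-kinase genes. These dim genes counted as measured through the knockout channel alone, which fixes their direction in part. Past 2-fold stood 28 of the 79 on array 1 (27% of all genes) and 2 on array 2 (2.84%). Those 2 were Unc119 and Nfatc1 (0.41 and -1.09). Nfatc1 was singled out after its values were seen.

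Among the kinases and phosphatases that set the activity of Lck, Zap70 and Plcg1, 15 of 16 were measured and none passed (medians 0.43 on array 1 and -0.04 on array 2). Unc119, an activator of Lck and Fyn, was at 1.22 and 1.26, and at 3.99 and 1.77 by the scanner software's log ratio. Pag1, the membrane anchor of the inhibitory kinase Csk, was at 2.58 and 0.72 (limma adjusted p = 0.0577) and passed in 2 of 10 other ways of processing. Its other probes, dim in all 4 samples, were at 0.0052 and 0.26 and at -0.35 and -0.29. The wild-type sample of array 1 was dim for Unc119 and Pag1, so those ratios are not exact. Ubash3b, a phosphatase that acts on Zap70 and Syk, was at 0.58 on both arrays.

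Of the adaptors, 20 of 24 were measured and none passed, with a median of 0.12. Sit1, a transmembrane adaptor that dampens receptor signalling, was lower on both arrays at -0.74 and -0.85. Trat1, an adaptor that associates with the receptor, was at 1.62 and 0.60. Nck2, which binds Lcp2 and links it to actin, was at 2.05 and 0.29, and a dimmer probe gave 1.21 and 0.10. Wild-type signal of Trat1 and of both Nck2 probes was not well above background on array 1, so those ratios are not exact.

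Of the genes that act on Ras and diacylglycerol, 16 of 24 were measured and none passed (median 0.13). Sos2, an exchange factor that works beside Rasgrp1, was at 1.16 and 0.50. The protein kinase D gene Prkd2, activated downstream of diacylglycerol, was at -0.96 and -0.41. The Ras gene Hras was at 0.93 and 0.39. Sos2 and Hras, too, had a dim wild-type channel on array 1. Dgkz, the other main diacylglycerol kinase of T cells, was at -0.76 and 0.35, so its sign differed between arrays where that of Dgka did not; this gene was chosen with its values known, and no difference between the 2 genes was tested.

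Calcium and NFAT genes had 16 of 20 measured and none past the threshold (median 0.32). Stim1, the calcium sensor of the endoplasmic reticulum, stood at 0.43 and 0.41, and its relative Stim2, dim in wild type on array 1, at 1.40 and 0.24. Of the NF-kappaB and phosphatidylinositol 3-kinase genes, 12 of 16 were measured and 1 passed (median 0.072). Inpp5d, a lipid phosphatase, was at 0.49 and 0.58. Pik3cg, a catalytic subunit gene, did not pass (mean 0.84, 95% interval -0.13 to 1.82, which includes no difference). Neither wild-type sample was well above background, so the knockout level is given as a bound, at least 1.64-fold higher as processed here. Such a bound compares the knockout's mean with, on each array, the higher of the faintest reliable signal and the probe's own. It is open to dye bias and includes neither the error of 2 arrays nor the choice of processing. Without background correction the mean of Pik3cg was 0.46.

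**Figure D4:**
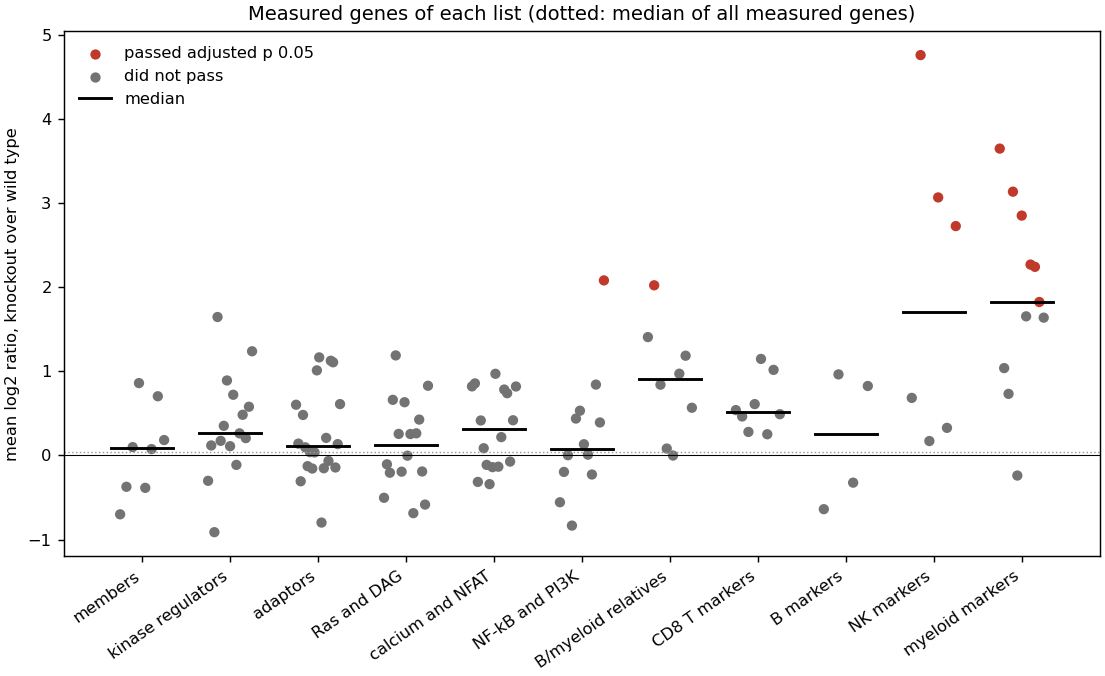
Mean log2 ratio, knockout over wild type (y axis), of each measured gene in the lists (x axis), red where the adjusted p passed 0.05, with a bar at the median of the list and a dotted line at the median of all genes, 0.04. The members have a median of 0.09, and the red points lie mostly among the myeloid and NK markers.

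Of 14 relatives of the members that B, myeloid or natural killer (NK) cells use in their place, 8 were measured, 6 of them above 0 on both arrays. In 4 of those 6 wild type was dim, on both arrays for 3 (Clnk, Lyn and Fgr) and on array 1 for Blnk. These 4 counted as measured through the knockout channel alone, which fixes their direction in part. Syk, the relative of Zap70, was among the 6 that were too dim, with Btk, Blk, Bank1, Dgkg and Rasgrp3. Clnk, which encodes an adaptor of the Lcp2 family, passed. Wild-type cells had no signal well above background on either array, and the knockout was at least 2.23-fold higher (ratios 2.02 and 2.03; limma adjusted p = 0.00691). Its other probe, dim in all 4 samples, was at 0.00037 and 0.29. Of 10 other ways of processing 4 kept that call, with adjusted p between 6.42e-10 and 0.457 over the 10. Plcg2, the relative of Plcg1, was at 0.71 and 1.66. The Src-family kinase gene Lyn, dim in both wild-type samples, had a bound of at least 1.76-fold higher as processed here. The 95% interval of its mean log2 ratio was -0.00064 to 1.95, and without background correction the mean was 0.53. Neither gene passed. No difference between these genes and the members was tested.

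Some markers of other cells were also higher in the knockout. Of 16 myeloid markers 11 were measured and 6 passed, all higher in the knockout, beside 1.24% called higher among all genes. All 6 were dim in wild type on array 1 and 3 of them, Adgre1, C1qc and Csf1r, on both arrays. They thus counted as measured through the knockout channel alone, which fixes their direction in part. Among them, Lyz2 was at 4.03 on array 1 and -0.38 on array 2. Their summed normalised intensity was 28500 and 29900 in the knockout and 5230 and 15040 in wild type, and Itgam, Spi1, Cd68, Flt3 and Siglech were too dim. Of 8 NK markers 6 were measured and 3 passed, Fcer1g, Klrb1c and Tyrobp, all higher. Fcer1g was dim in wild type on both arrays and Klrb1c on array 1. These 2, too, counted as measured through the knockout channel alone. The 6 measured NK markers summed to 21750 and 89200 against 7122 and 9249, and Itga2 and Klre1 were too dim. Of 10 B cell markers 4 were measured and none passed, with sums of 9120 and 11130 against 8774 and 9311, and the other 6 were too dim, among them Cd79a, Pax5 and Ebf1. CD8 T cell markers summed to 466000 and 433800 in the knockout and 305900 and 280400 in wild type. The part of other cell types in the ratios of Clnk, Plcg2 and Lyn was not tested.

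**Figure D5:**
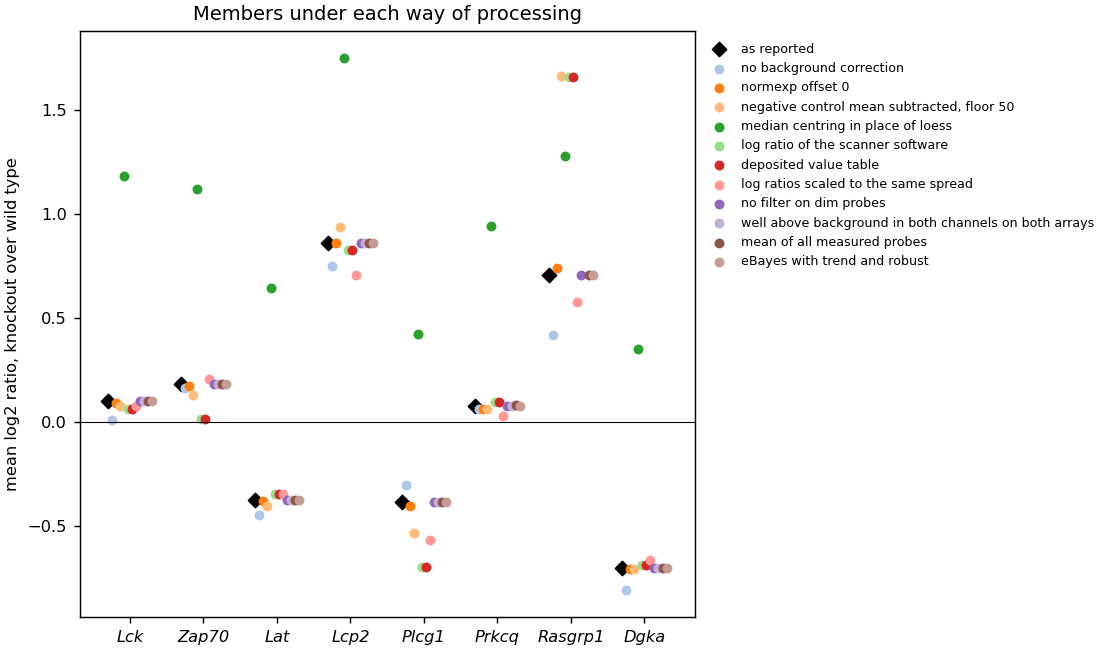
Mean log2 ratio, knockout over wild type (y axis), of the 8 measured members (x axis) as reported (black diamonds) and under 11 other ways of processing (coloured circles). Median centring lies above the other settings for every member except Rasgrp1 and puts Lat, Plcg1 and Dgka above 0. Rasgrp1 reaches 1.66 where background is taken from the scanner software or from negative controls.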

How the data were processed

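Agilent Feature Extraction 9.5.3.1 quantified the scans, per the submitters' processing notes. Each deposited file gives mean signal and local background per spot and dye as linear intensity, with no normalisation, and a log10 ratio of Cy5 over Cy3 after the software's background and dye correction, per the file headers. The deposited value table holds that log10 ratio, matching it to within 0.005 at every spot, with column medians of 0.

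Here limma 3.58.1 in R 4.3.3 corrected background by normexp (offset 50) and normalised log2 ratios by loess, leaving out control and outlier spots; spots of a probe were averaged. A probe counted as measured where 1 channel was well above background on each of the arrays, and a gene took its brightest measured probe. Channel values follow Aquantile normalisation. Ratios were tested with lmFit and eBayes (prior degrees of freedom infinite, 1 residual), two-sided. With an infinite prior, each p-value rests on the gene's mean and on 1 variance pooled over all measured genes. It does not reflect the gene's own spread between the 2 pairs. A gene whose arrays disagreed, such as Ywhaz, could therefore pass. The fit was tried on simulated data. With noise resampled from the arrays, 10.7% of 2-fold and 88.5% of 4-fold differences passed. With normal noise, 34.9% and 99.3% did. The noise was the difference between the arrays divided by 2, less than the spread of single arrays, so these shares are likely too high.

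The members and lists were chosen with earlier results of these data known. All 9 members are named; each other pathway list gives its passing genes and the 3 with the largest smaller ratio of like sign. Some genes under that rule are not reported here. Probe coordinates come from the array's annotation (mm8), and exons were not annotated. Both arrays share 1 slide and scan, so no batch was testable. Alternatives changed background, normalisation, scaling, filter, probe choice and eBayes options.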

Additional observations from a re-analysis of the deposited data

How the results depend on the processing

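None of the measured members passed under any of the 11 alternatives (limma). At an unadjusted p under 0.05, limma gave 0 as reported and 0 to 2 under the alternatives. Each mean kept its sign except under median centring, which made Lat 0.64, Plcg1 0.42 and Dgka 0.35. Median centring also raised Lck to 1.18, Zap70 to 1.12, Lcp2 to 1.75, Prkcq to 0.94 and Rasgrp1 to 1.28. Without array 1 or array 2 in turn, the single ratios, which have no test, ranged from 0.0099 to 0.19 for Lck, 0.12 to 0.25 for Zap70, -0.53 to -0.21 for Lat, 0.13 to 1.59 for Lcp2, -1.06 to 0.29 for Plcg1, -0.12 to 0.27 for Prkcq, 0.11 to 1.30 for Rasgrp1 and -0.94 to -0.46 for Dgka. Rasgrp1 was not measured when probes had to be bright in all samples.

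The count of genes past the threshold moved far more, from 138 (115 higher, 23 lower) as reported. It was 35 (27 and 8) without background correction, 80 (46 higher) with negative controls subtracted, 64 (63 and 1) with median centring, 39 (25 and 14) with probes bright in all samples and 263 (218 and 45) with a trend and robust eBayes. It was 0 in both directions with the scanner software's log ratio, the deposited table, ratios scaled to the same spread and no filter. At an unadjusted p under 0.05, limma then gave 574, 569, 902 and 2478. The reported test is itself paired, each array giving 1 ratio of its samples, and no further block could be added. Dim channels limit Fyn and Rasgrp1.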
